A study of Mus musculus with 18 samples.

Results

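The comparison described here is the knockout of Pth1r in GFP-positive bone cells of the mouse. It rests on the libraries titled as knockout and control GFP-positive bone, 3 of each, which make 6 of the 18 libraries of the series. All 54446 gene IDs counted in those libraries were considered, and 15516 passed the filter on low counts and were tested. The study profiled RNA from sorted osterix-derived cells, osterix being a factor that osteoblast precursors need to mature. Knockout mice carried a conditional loss of PTH1R and control mice were labelled wild type, and both were sampled at postnatal day 21. The GFP-positive cells were labelled as bone cells in both genotypes. The sources used here do not give the Cre driver, the floxed allele, the source of GFP or the number of animals behind a library. With no statement that libraries came from separate animals, p-values cover only the spread between samples, which may be technical. The remaining 12 libraries, from GFP-negative cells of bone and of marrow in both genotypes, were used as a comparison and to estimate the spread. The titles of those libraries also mark their cells as Tm+.

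PTH1R is a G protein-coupled receptor that binds parathyroid hormone (PTH) and its relative PTHrP. It raises cyclic AMP and activates protein kinase A, which phosphorylates salt-inducible kinases and so frees CRTC coactivators and class II histone deacetylases from their control. In the growth plate PTHrP and Indian hedgehog form a loop in which PTHrP, acting on PTH1R, holds back chondrocyte hypertrophy. In osteoblasts and osteocytes the receptor is known for its effects on bone formation, on osteoclast-regulating cytokines and on phosphate handling.

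Pth1r itself lies on the minus strand at chr9:110722085-110747145 of mm10. Its level was 4038, 3255 and 2725 CPM (counts scaled to a common library size, with totals adjusted by TMM) in knockout GFP-positive bone cells, against 4481, 4842 and 5035 CPM in control cells. The groups did not overlap, and the library closest to the controls was the first knockout library. The log2 fold change was -0.52 ± 0.13 (SE) with an adjusted p of 0.00226, and leaving out 1 library at a time gave values from -0.65 to -0.39. After a correction for gene length described below the fold change was -0.22 with an adjusted p of 0.175. The counts span all exons of the gene and the sources do not name the deleted ones, so the level does not test the deletion. The knockout effect on Pth1r in GFP-positive bone cells differed by 0.04 from that in GFP-negative bone cells and by 0.18 from that in marrow cells, and neither difference passed the test.

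The total counts were 27160257, 24463510 and 16497792 in the knockout libraries, against 24458754, 23216537 and 19281669 in the control libraries. The libraries detected 19030 to 20112 genes each, and 0 counts left room for a level of 0.114 to 0.216 CPM at most (3 counts; counting error only). The 10 genes with most counts took 37.0, 36.9 and 38.2% of the counts in knockout libraries, against 23.8, 22.6 and 23.4% in control libraries. Col2a1 alone took 22.6, 21.2 and 21.9% against 8.66, 8.31 and 10.5%. Scaling by library totals instead of TMM moved the median log2 fold change of all tested genes by -0.37, to -0.34. The sum over Y-linked genes was 175, 189 and 1.58 CPM in the knockout libraries, against 148, 122 and 1.11 CPM in the control libraries. By these genes the third library of each genotype differed in sex from the other 2. Xist was highest in the same libraries but low, at 0.0457, 0.097 and 5.04 CPM in knockout libraries against 0, 0.0395 and 1.25 CPM in control libraries.

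Of the 15516 genes tested, 7953 (51.3%) passed an adjusted p of 0.05. Of these, 4034 (26.0%) were higher and 3919 (25.3%) lower in knockout cells, and 2627 were at least 2-fold higher and 999 at least 2-fold lower. For 8937 genes (57.6%) the 3 knockout libraries did not overlap the 3 control libraries. Under library totals 2644 genes were higher and 5922 lower, so that 30.9% of the calls were higher against 50.7% with TMM. These shares are the background against which each gene list below is to be read.

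The fold changes followed exon length, the summed exons of a gene as the files give them. Each doubling of length raised the level of a gene, relative to the mean of the 6 libraries, by 0.128, 0.176 and 0.148 log2 units in knockout libraries, against -0.114, -0.19 and -0.148 in control libraries. The slopes are centred on the same 6 libraries, so that their signs are fixed by the centring where genotypes differ, and the gap between the genotypes was wider than the range within either. Among the shortest of 10 length classes of equal size, with a median length of 854 bases, the median log2 fold change was -0.38, and 8.05% were called higher and 30.9% lower. Among the longest class, with a median length of 12000 bases, it was 1.02, and 61.0% were called higher and 7.22% lower.

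The trend of each library on length was therefore removed in a second fit, called length-corrected below. The rank correlation between fold change and length over all genes was 0.38 as counted and 0.0065 after the correction. In the corrected fit 6974 genes were called (44.9%), 3585 higher (23.1%) and 3389 lower (21.8%). Of the 7953 calls 5733 (72.1%) were made again in the same direction, 57 in the opposite one. The length trend and the genotype cannot be told apart in these 6 libraries, and both values are given where they differ in call. Of the 501 called genes of the lists below, 92 lost the call on leaving out at least 1 of the 6 libraries.

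**Figure D1:**
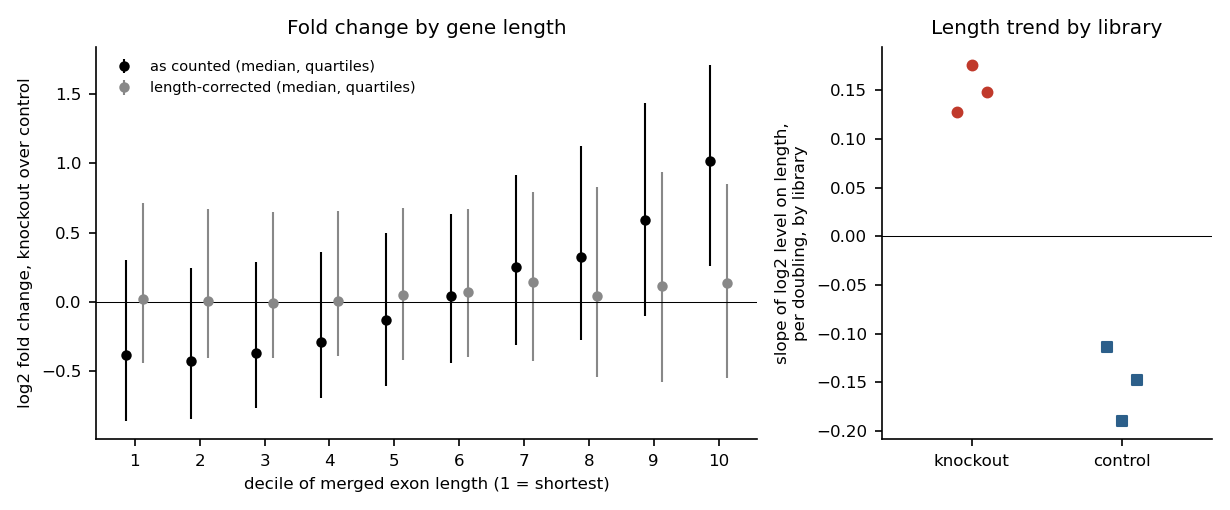
Log2 fold change of knockout over control GFP-positive bone cells in 10 classes of exon length, as counted and length-corrected, with medians and quartiles over the genes of each class (left), and the slope of level on length in each library (right), relative to the mean of the 6 libraries. The median as counted lies at -0.38 in the shortest class and at 1.02 in the longest, and at 0.02 and 0.14 after the correction.

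Levels of different genes were compared as TPM, in which counts are divided by length before scaling. Col2a1, the collagen of hyaline cartilage, was first in both genotypes, with 98800, 94900 and 98370 TPM in knockout cells against 31550, 29260 and 37730 TPM in control cells. It was followed in both genotypes by Sparc, a matrix glycoprotein of bone, at mean levels of 29960 against 24850 TPM, and by Col1a1, the main collagen of bone, at 24070 against 19830 TPM. The other genes among the 10 most abundant in knockout cells were Chad, Col9a3, Comp, Col9a2, Cnmd, Col10a1 and Spp1, and those in control cells were Serpinh1, Cnmd, Comp, Matn3, Col9a3, Fos and Chad. The label bone cells thus covers libraries in which cartilage transcripts led in both genotypes. The summed chondrocyte markers were 350900, 317700 and 326900 CPM in knockout cells against 118700, 114600 and 140400 CPM in control cells. Most of that sum was Col2a1 (279900, 251500 and 260000 against 80520, 76150 and 97410 CPM), and of the 10 markers 6 were higher and 1 lower. The summed osteoblast markers were 69370, 86040 and 85120 CPM against 68420, 55880 and 43700 CPM, with 6 of 10 higher and 1 lower. In such bulk samples a larger share of a cell type and more RNA per cell of that type cannot be told apart.

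Markers of other cell types were present at low levels. The defining lymphoid genes Vpreb1, Igll1, Cd3e and Rag1 were near 0, and leukocyte markers summed to 1.65, 4.56 and 9.79 CPM in knockout cells against 2.01, 1.89 and 1.83 CPM in control cells, with 1 of 5 tested called (Ptprc, higher). Erythroid markers summed to 45.6, 621.1 and 169.4 CPM against 127.2, 153.2 and 154.1 CPM (2 of 11 higher). Neutrophil markers summed to 28.9, 141.3 and 111.8 CPM against 80.2, 28.6 and 84.4 CPM, and endothelial markers to 8.77, 26.5 and 10.7 CPM against 25.9, 8.56 and 14.1 CPM, with no call among 11 tested in either list. The second knockout library carried the most erythroid and neutrophil signal, and the groups overlapped in all 3 of these sums. Skeletal muscle markers summed to 101.1, 89.3 and 81.1 CPM against 82.3, 86.6 and 89.0 CPM (2 of 5 higher, 2 lower), with Myh1, Myh2, Myh4 and Myog at 0. Megakaryocyte markers summed to 43.8, 32.0 and 32.8 CPM against 10.9, 14.5 and 13.7 CPM, most of it Nrgn, the 1 gene of 5 called, with Gp6 and Gp1bb near 0.

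The list of cartilage collagens, with Col12a1 and Col14a1 among them, rose as a group in knockout cells. All 10 tested were higher and none was lower, with a median log2 fold change of 1.90 against 0.03 over all genes. The same 10 were higher in the length-corrected fit (median 1.47) and under library totals (median 1.52). With the longest transcript as length in the correction 9 were higher. Against GFP-negative bone cells the knockout effect was higher for 9 of the 10, where 4.98% of all genes had a higher and 1.11% a lower effect (6.08% in all). Against marrow cells it was also higher for 9, where 10.8% of all genes had a higher and 7.60% a lower effect (18.4% in all). Higher and lower give the sign of the difference in log2 fold change, so that a weaker fall counts as higher. The split of these differences over all genes depended on the method. Under library totals 766 genes had a higher and 4911 a lower effect than in marrow cells, against 1674 and 1179 with TMM. DESeq2 gave 872 higher and 548 lower against GFP-negative bone cells, where edgeR gave 772 and 172.

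Col2a1 (chr15:97975602-98004695, minus strand) measured 279900, 251500 and 260000 CPM in knockout cells against 80520, 76150 and 97410 CPM in control cells. The groups were wide apart, with a log2 fold change of 1.64 ± 0.16 (adjusted p 1.08e-07) that was 1.06 after the length correction. Col11a2 (chr17:34039437-34066685, plus strand), a chain of the collagen XI that nucleates cartilage fibrils, measured 15220, 14890 and 14330 CPM against 1508, 1107 and 1613 CPM. Its log2 fold change of 3.39 ± 0.26 was 3.07 after the correction, and each knockout library stood above every control library. Its partner chain Col11a1 measured 9837, 9703 and 9650 CPM against 1758, 1506 and 1827 CPM (2.52 ± 0.22, adjusted p 6.94e-08). The 3 chains of collagen IX, which decorates those fibrils, rose by 1.38 ± 0.13 (Col9a1), 1.61 ± 0.12 (Col9a2) and 1.06 ± 0.12 (Col9a3) log2 units. Col27a1, a fibrillar collagen of cartilage, rose by 1.98 ± 0.17, and Col12a1, a collagen associated with fibril surfaces, by 1.83 ± 0.12. For Col12a1, a gene of long transcript, the corrected value was 0.84. Col14a1, also in the list, was low, at 4.55 CPM in knockout and 0.84 CPM in control cells on average. Unlike the rest of the list, Col12a1 and Col14a1 had higher levels in GFP-negative bone cells. They averaged 268.2 and 11.2 CPM in control cells there, against 117.3 and 0.84 CPM in control GFP-positive bone cells.

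Col10a1 (chr10:34389981-34397085, plus strand), the collagen of hypertrophic chondrocytes, measured 8906, 8667 and 8475 CPM in knockout cells against 1858, 2087 and 1715 CPM in control cells. The fold change of 2.20 ± 0.24 (adjusted p 1.09e-06) was 2.48 after the length correction. In GFP-negative bone cells the same gene averaged 1341 ± 188 CPM in knockout cells against 861 ± 91.7 CPM in control cells (SD, n = 3 each), and in marrow cells 150 ± 50.2 against 181.5 ± 66.5 CPM. The knockout effect in GFP-positive bone cells was larger than in GFP-negative bone cells by 1.56 ± 0.33 (adjusted p 0.0091) and larger than in marrow cells by 2.48 ± 0.34 (adjusted p 0.000104).

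**Figure D2:**
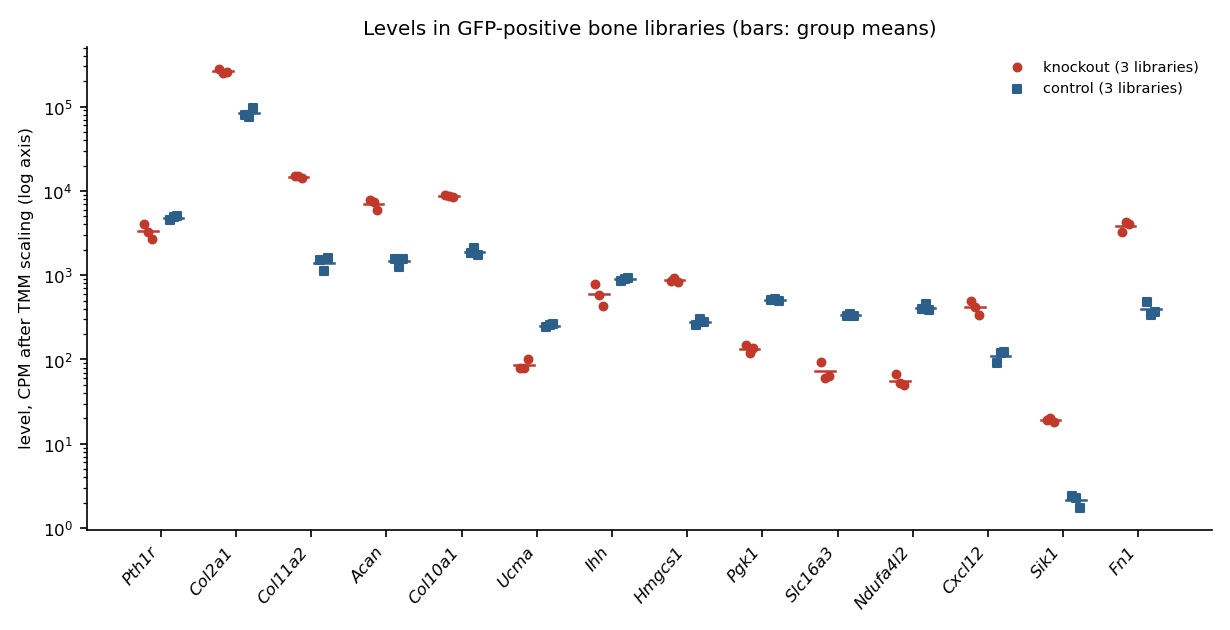
Levels of 14 genes in each of the 3 knockout and 3 control libraries of GFP-positive bone cells, in TMM-scaled CPM on a logarithmic axis, 1 point per library with group means as bars. Knockout libraries lie above the controls for Col2a1, Col11a2, Acan and Col10a1 and below them for Ucma, Pgk1, Slc16a3 and Ndufa4l2.

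Other cartilage matrix genes did not move as one group. Of 25 proteoglycans and noncollagenous matrix proteins tested, 6 were higher and 5 lower (length-corrected 8 and 2), with a median of 0.22 that turned to -0.16 under library totals (4 higher, 7 lower), still 0.18 above all genes. Acan (chr7:79053483-79115099, plus strand), the aggregating proteoglycan of cartilage, measured 7731, 7370 and 5961 CPM in knockout cells against 1578, 1267 and 1555 CPM in control cells (2.26 ± 0.14, adjusted p 8.55e-10). Chad, a cell-binding leucine-rich matrix protein, measured 10040, 9981 and 10030 CPM against 3635, 4028 and 3652 CPM (1.41 ± 0.10). Both genes separated the genotypes fully. Hspg2, which encodes perlecan, rose by 2.79 ± 0.34, and Cytl1, a secreted factor of chondrocytes, by 2.11 ± 0.25.

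Ucma (chr2:4976122-4985748, plus strand), a matrix protein of the resting and upper zone of growth cartilage, moved the other way. It measured 79.9, 79.1 and 100 CPM in knockout cells against 243.1, 254.9 and 261.2 CPM in control cells. All 3 knockout libraries were under all 3 control libraries, with a log2 fold change of -1.55 ± 0.13 (adjusted p 2.44e-08) that was -1.12 after the length correction. Epyc, a small leucine-rich proteoglycan of the growth plate, measured 933.2, 774.7 and 905.9 CPM against 1629, 1485 and 1801 CPM (-0.91 ± 0.12, adjusted p 3.87e-06; length-corrected -0.56). Cnmd, an angiogenesis inhibitor of cartilage, fell by 0.65 ± 0.13 as counted, and its corrected value of -0.23 was not called. Hapln1, the link protein that ties aggrecan to hyaluronan, averaged 7196 against 7293 CPM (-0.02 ± 0.12, not called), and Matn1, a cartilage matrilin, 2788 against 2252 CPM (0.31 ± 0.14, not called).

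In GFP-negative bone cells the knockout effects on these matrix genes were more negative. The knockout effect on Ucma was -3.11 ± 0.16 there, on Epyc -2.81 ± 0.13, on Hapln1 -1.59 ± 0.12 and on Matn1 -1.53 ± 0.15. For 12 of the 25 matrix genes the effect in GFP-positive bone cells was higher than in GFP-negative bone cells and for none lower. The difference was 1.55 ± 0.20 for Ucma, 1.90 ± 0.17 for Epyc, 1.57 ± 0.17 for Hapln1 and 1.84 ± 0.20 for Matn1. Against marrow cells 8 were higher and 2 lower.

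Among 22 SOX factors and Hedgehog loop genes, 14 were higher and 1 lower, with a median of 0.98 (length-corrected 12 and 0; library totals 9 and 2). Sox9, the transcription factor that commits and maintains chondrocytes, measured 2991, 2825 and 2974 CPM in knockout cells against 1421, 1531 and 1723 CPM in control cells (0.91 ± 0.10, adjusted p 3.82e-07). Ihh, the hedgehog ligand of prehypertrophic chondrocytes, measured 787.0, 586.2 and 436.1 CPM against 844.9, 901.5 and 924.1 CPM. The groups did not overlap, although the first knockout library came close to the controls. Its fold change of -0.56 ± 0.18 (adjusted p 0.0148) was -0.28 after the length correction (adjusted p 0.217), and it was not called without the third knockout library or without the third control library (adjusted p 0.0836 and 0.0515). The hedgehog receptor and target Ptch1 rose by 1.64 ± 0.18 (length-corrected 0.70), and the transcription factor Gli3 by 2.18 ± 0.26. Trps1, a repressor expressed in growth plate chondrocytes, rose by 1.72 ± 0.14, and Foxa2, a forkhead factor of hypertrophic chondrocytes, by 1.22 ± 0.18. Pthlh, which encodes PTHrP, was at 0.61 against 0.09 CPM on average and did not pass the test.

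Of 23 genes of hypertrophic cartilage 14 were higher and 4 lower (length-corrected 15 and 2), with a median of 0.63. Under library totals 10 were higher and 7 lower (median 0.25). Besides Col10a1, the genes with the smallest p were Mef2d, a relative of the hypertrophy factor Mef2c, at 1.53 ± 0.09, Chst11, a chondroitin sulphotransferase, at 1.25 ± 0.14, and Enpp1, which makes pyrophosphate, at 1.25 ± 0.15. Bambi, a pseudoreceptor of TGF-beta signalling, was lower (-0.79 ± 0.15), as was Panx3, a channel protein of maturing chondrocytes and osteoblasts (-0.48 ± 0.12; length-corrected not called). The genes of the resting and articular zones split, 7 higher and 3 lower of 16 (median 0.53; length-corrected 7 and 3). Apoe, a lipid carrier (1.93 ± 0.13), and Thbs1, a matricellular protein (1.44 ± 0.16), rose, while Ucma, Barx1 (-1.42 ± 0.33) and the Wnt antagonist Sfrp5 (-2.19 ± 0.28) fell.

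Of 25 genes of sulphate supply and glycosaminoglycan synthesis, 12 were higher and 5 lower (length-corrected 9 and 6), with a median of 0.28 that turned to -0.11 under library totals (4 higher, 6 lower). Xylt1, which starts glycosaminoglycan chains, rose by 1.599 ± 0.14, and Slc35d1, a nucleotide sugar transporter needed for cartilage, by 0.85 ± 0.12. B4galt7, which adds the first galactose of the linker, fell by 1.01 ± 0.11.

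Bone genes moved less uniformly. Of 16 osteoblast transcription factors 7 were higher and 1 lower, with a median of 0.27 that turned to -0.09 under library totals (2 higher, 4 lower). Runx2, the master factor of the lineage, rose by 0.96 ± 0.12 (length-corrected 0.42), and Dlx3, a homeobox factor of osteoblasts and hypertrophic chondrocytes, by 0.78 ± 0.16 (1.12). Sp7, which encodes osterix, was not called (0.09 ± 0.13, 155.8 against 146.2 CPM). Cbfb, the partner of RUNX proteins, fell by 0.44 ± 0.10 and Zeb1 rose by 0.96 ± 0.23, and neither was called after the length correction.

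Of 23 bone matrix genes 11 were higher and 6 lower (length-corrected 12 and 4), with a median of 0.345 that turned to -0.03 under library totals (8 higher, 7 lower). Without the second control library 3 were lower. Col1a1 measured 37460, 48700 and 52030 CPM in knockout cells against 45890, 36220 and 26720 CPM in control cells. The groups overlapped and the gene did not pass the test (0.34 ± 0.21). Col1a2, the second chain of type I collagen, rose by 0.96 ± 0.19 as counted, with 0.11 after the length correction (not called). The minor fibrillar chains Col5a1 (1.80 ± 0.18) and Col22a1 (2.33 ± 0.24) rose in both fits. Bglap, which encodes osteocalcin, measured 347.3, 321.9 and 399.6 CPM against 623.3, 828.6 and 563.6 CPM. All knockout libraries were under all control libraries as counted (-0.92 ± 0.27), the corrected value of -0.51 was not called, and reads may be shared with the near-identical Bglap2. Serpinh1, the collagen chaperone, measured 6055, 4980 and 5064 CPM against 11390, 10570 and 11690 CPM (-1.06 ± 0.12, adjusted p 5.09e-07; length-corrected -0.70).

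Genes of mineralisation and phosphate handling were mostly higher or not called. Of 18 tested 10 were higher and none lower (length-corrected 10 and 1), with a median of 0.845, or 0.76 when Ahsg, at 0 in 1 genotype and under the floor, is left out. Under library totals 7 were higher and 4 lower. Phex, an endopeptidase of osteoblasts and osteocytes whose loss causes phosphate wasting, measured 67.6, 96.8 and 80.1 CPM in knockout cells against 12.2, 11.1 and 10.8 CPM in control cells. The lowest knockout library was above the highest control library, and the fold change was 2.84 ± 0.15 (adjusted p 9.07e-11; length-corrected 2.57). The effect on Phex was larger than in GFP-negative bone cells by 1.43 ± 0.19 (adjusted p 0.000124) and than in marrow cells by 2.24 ± 0.19 (adjusted p 4.44e-07). The phosphate transporter Slc20a1 rose by 1.84 ± 0.18, the pyrophosphate channel gene Ank by 1.19 ± 0.20, the calcium exchanger Slc8a3 by 0.93 ± 0.14 and the alkaline phosphatase gene Alpl by 0.63 ± 0.11. Alpl was not called under library totals (0.25, adjusted p 0.0689).

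Of 18 osteocyte genes 11 were higher and none lower (length-corrected 13 and 0; library totals 9 and 1), with a median of 0.835. Dmp1, an acidic matrix protein of osteocytes, measured 209.9, 381.9 and 200.1 CPM in knockout cells against 126.6, 100.1 and 104.2 CPM in control cells (1.26 ± 0.31). The second knockout library was the highest and the groups did not overlap. Ptprz1, a receptor phosphatase, rose by 1.83 ± 0.29. Sost, the osteocyte gene for sclerostin, was at 0.63 against 0.57 CPM on average (not called), so the most specific marker of mature osteocytes was close to the detection floor in both genotypes. Against GFP-negative bone cells 5 osteocyte genes had a higher effect (3 without the third control or the second knockout GFP-positive library, or without the second GFP-negative library of either genotype), and against marrow cells 12 higher and 1 lower.

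**Figure D3:**
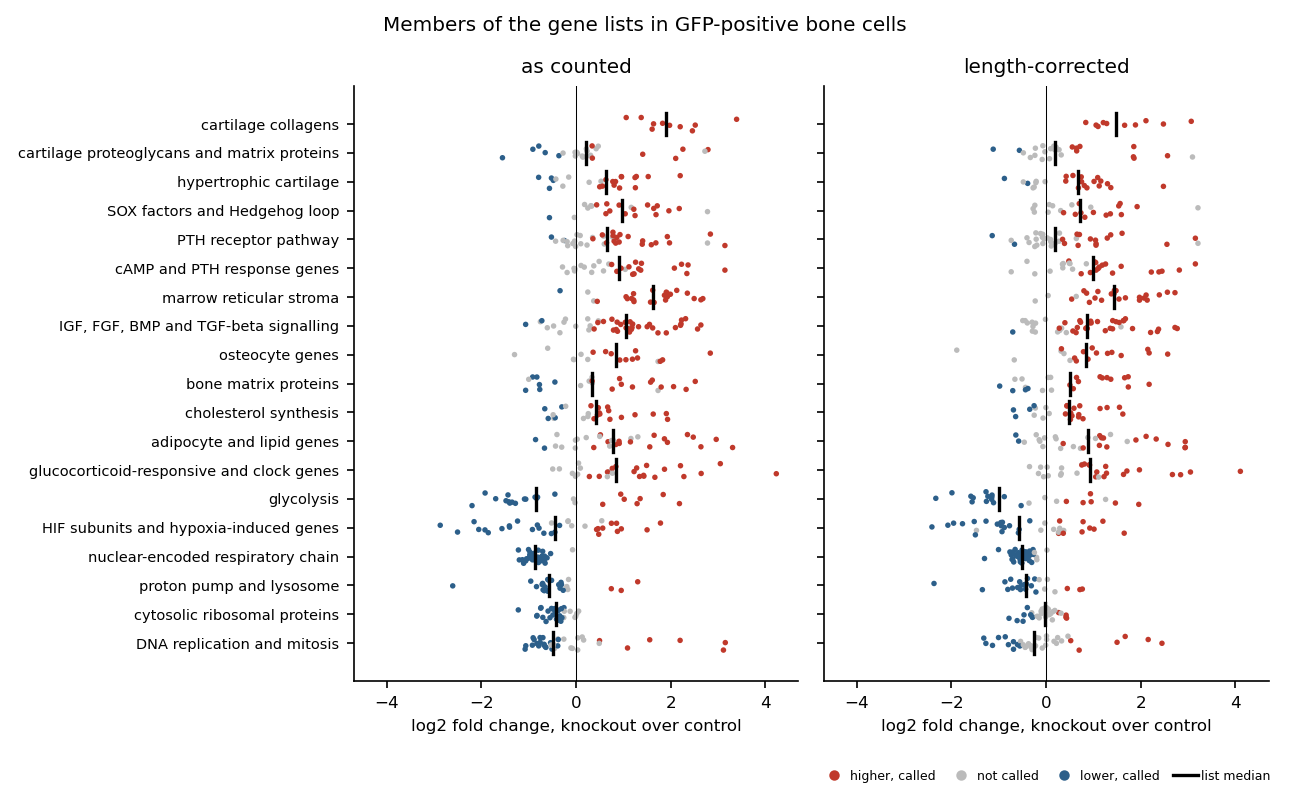
Log2 fold changes of the members of 19 gene lists in knockout over control GFP-positive bone cells, as counted (left) and length-corrected (right), 1 point per gene, red where called higher, blue where called lower and grey where not called, with the list median as a bar. Points of genes at 0 in all libraries of 1 genotype are left out, while the median bars include those genes. Cartilage collagens lie highest with marrow stroma (medians 1.90 and 1.64 as counted) and the respiratory chain lies low with glycolysis (-0.86 and -0.85). The medians of the lists of cartilage proteoglycans and of bone matrix proteins lie above 0 in both panels. Under library totals, which are not drawn, those 2 medians turn below 0.

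Genes of marrow reticular stroma rose as a group. Of 24 tested 21 were higher and 1 lower (length-corrected 21 and 0; library totals 19 and 1), with a median of 1.64. Cxcl12, a chemokine that keeps haematopoietic stem cells in the marrow, measured 498.2, 422.9 and 340.1 CPM in knockout cells against 91.3, 119.8 and 121.8 CPM in control cells (1.92 ± 0.17, adjusted p 4.64e-08; length-corrected 1.44). All knockout libraries exceeded all control libraries. Nt5e, the surface enzyme CD73, measured 694.3, 746.7 and 699.5 CPM against 129.0, 118.9 and 131.4 CPM (2.50 ± 0.13). The leptin receptor Lepr rose by 1.89 ± 0.17, the stem cell factor gene Kitl by 2.35 ± 0.29, the PDGF receptor Pdgfrb by 2.13 ± 0.17, the adhesion molecule Vcam1 by 1.93 ± 0.18 and the lipoprotein lipase gene Lpl by 1.87 ± 0.17. Eng, the 1 gene that was lower (-0.34 ± 0.13), lost its call without any 1 of 5 libraries, the second knockout library being the exception. The knockout effect on 2 of the 24 genes was higher than in GFP-negative bone cells, Nt5e by 1.47 and Snai2 by 0.61, and the effect on Lepr differed from that in GFP-negative bone cells by -0.09 and on Vcam1 by 0.03 (not called). Against marrow cells 8 genes had a higher and 1 a lower effect, with a median difference of 0.58. Summed smooth muscle and pericyte markers moved with this list, at 564.9, 600.3 and 855.3 CPM in knockout cells against 158.5, 135.7 and 136.0 CPM in control cells, with 4 of 11 higher and 1 lower. Most of that sum was Cspg4 (523.4, 564.3 and 804.2 against 101.6, 86.0 and 97.2 CPM), a proteoglycan also made by chondrocytes, while Acta2 was lower without passing the test (-1.17). The part of these cells in the result was not tested.

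Of 31 adipocyte and lipid genes 16 were higher and 2 lower (length-corrected 14 and 2; library totals 11 and 5), with a median of 0.79. Fasn, the fatty acid synthase, measured 373.3, 401.2 and 459.0 CPM in knockout cells against 47.0, 31.1 and 46.4 CPM in control cells (3.31 ± 0.16, adjusted p 5.79e-11; length-corrected 2.58). No knockout library came near the controls. The effect on Fasn exceeded that in GFP-negative bone cells by 1.66 ± 0.22 and that in marrow cells by 2.04 ± 0.22. Acaca, the enzyme before Fasn in fatty acid synthesis, rose by 2.35 ± 0.27, the adipogenic receptor Pparg by 2.64 ± 0.40 from 0.75 CPM on average in controls, and the lipid droplet gene Cidea by 2.48 ± 0.25. Plin2, a coat protein of lipid droplets, fell by 0.85 ± 0.10. Against marrow cells the effect was higher for 6 and lower for 12 of the 31.

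Cholesterol synthesis genes responded differently in GFP-positive bone cells and in the other cell fractions. SREBP2, encoded by Srebf2, is cleaved when membrane sterol is low and then switches on the enzymes of the mevalonate and sterol pathway. Of 24 genes tested 14 were higher and 4 lower in knockout GFP-positive bone cells (length-corrected 15 and 4), with a median of 0.42. Under library totals 6 were higher and 7 lower, with a median of 0.04, so the balance of the list within this comparison depended on the scaling. In GFP-negative bone cells none was higher and 20 were lower (median -0.98), where 25.7% of all genes were lower, and in marrow cells 2 were higher and 13 lower (median -0.70), where 24.8% of all genes were lower. The knockout effect in GFP-positive bone cells was higher than in GFP-negative bone cells for 20 of the 24 and lower for none (median difference 1.42). It was higher than in marrow cells for 16 and lower for none (median difference 1.23). Under library totals those counts were 19 and 0 against GFP-negative bone cells and 12 and 1 against marrow cells. After the length correction they were 20 and 16 higher, and on leaving out each library 19 to 20 and 14 to 17 higher.

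Hmgcs1 (chr13:119690379-119708260, plus strand), which makes the first committed precursor of mevalonate, measured 842.4, 935.5 and 821.4 CPM in knockout cells against 257.9, 302.8 and 278.1 CPM in control cells. The groups were far apart, with a log2 fold change of 1.63 ± 0.09 (adjusted p 9.8e-11) and of 1.62 after the length correction. In GFP-negative bone cells it averaged 93.8 ± 5.84 CPM in knockout and 93.2 ± 7.06 CPM in control cells, and in marrow cells 42.4 ± 1.03 and 37.97 ± 1.85 CPM. The difference of the knockout effect was 1.62 ± 0.12 against GFP-negative bone cells (adjusted p 9.87e-07) and 1.47 ± 0.12 against marrow cells (adjusted p 3.46e-07). Srebf2 itself measured 265.8, 243.0 and 258.4 CPM in knockout cells against 128.3, 140.1 and 126.0 CPM in control cells (0.96 ± 0.12), and its libraries did not overlap either.

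The squalene enzymes further down the pathway changed less than Hmgcs1 in GFP-positive bone cells and were lower in knockout cells elsewhere. Not all later enzymes followed. Hsd17b7 averaged 175.4 against 73.7 CPM in GFP-positive bone cells. In marrow cells Hsd17b7 (25.3 against 15.7 CPM) and Sc5d (19.05 against 10.1 CPM) had higher means in knockout cells, while 13 genes of the list were lower there. Squalene epoxidase, Sqle, averaged 369.7 ± 37.2 CPM in knockout cells against 224.9 ± 11.99 CPM in control cells, while in GFP-negative bone cells it averaged 45.9 ± 2.14 against 74.8 ± 2.95 CPM and in marrow cells 10.3 ± 0.688 against 29.96 ± 5.95 CPM. The knockout effect differed by 1.42 ± 0.16 and 2.25 ± 0.16. Squalene synthase, Fdft1, averaged 282.6 ± 17.6 against 206.5 ± 19.8 CPM, a fold change of 0.45 ± 0.10 (0.07 and not called under library totals), and 33.9 ± 2.01 against 70.3 ± 4.89 CPM in GFP-negative bone cells. Nsdhl, a sterol dehydrogenase, Mvk, the mevalonate kinase, and Ebp, a sterol isomerase, were lower as counted by 0.66, 0.59 and 0.44 log2 units, and Nsdhl alone of these was called after the length correction.

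**Figure D4:**
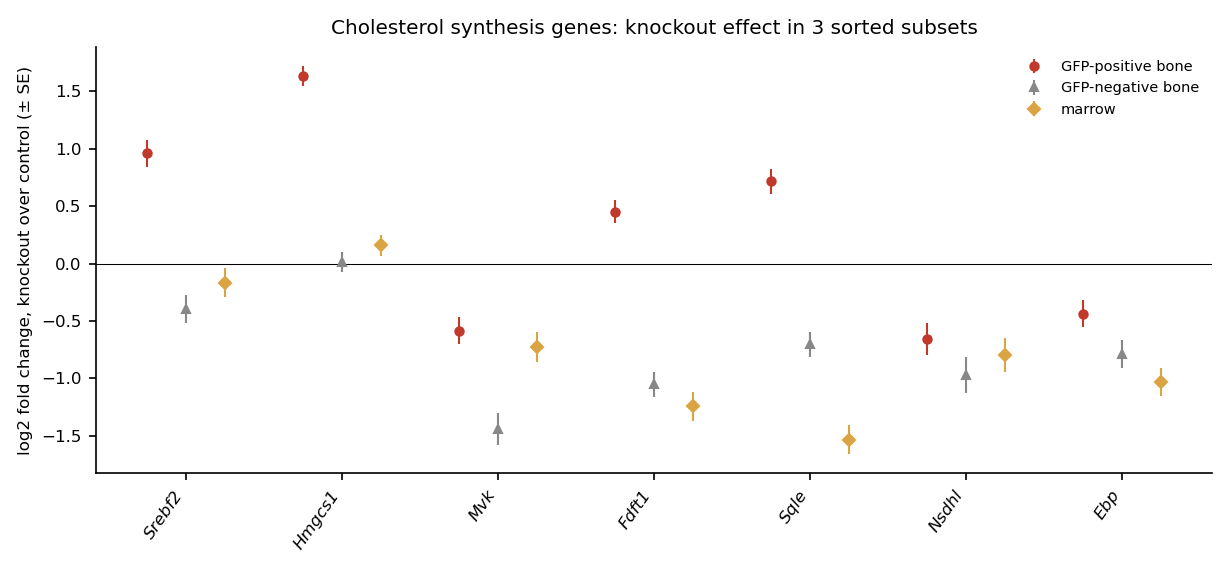
Log2 fold change of knockout over control for 7 cholesterol genes described in the text in GFP-positive bone, GFP-negative bone and marrow cells, with standard errors. Hmgcs1 lies at 1.63 in GFP-positive bone cells, at 0.01 in GFP-negative bone cells and at 0.16 in marrow cells, and Sqle at 0.72, -0.71 and -1.53 in the same order.

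The promoter of Hmgcs1 is printed because this gene had the smallest p of the list; it was chosen after its values were seen. The sequence is from RefSeq on GRCm38.p6, chr13:119690101-119690400, plus strand, 250 bases before to 50 after the start, and capitals mark the letters CACCCCAC, the end of the sterol regulatory element as described for other sterol genes.
Hmgcs1: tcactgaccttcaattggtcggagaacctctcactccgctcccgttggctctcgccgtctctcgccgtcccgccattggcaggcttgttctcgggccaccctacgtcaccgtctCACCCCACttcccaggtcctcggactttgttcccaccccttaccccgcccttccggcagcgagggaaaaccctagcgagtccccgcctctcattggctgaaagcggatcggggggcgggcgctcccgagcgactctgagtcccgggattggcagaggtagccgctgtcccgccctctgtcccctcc
Searched on both strands, CACCCCAC occurred in 2.87% of all 32851 promoter windows of this length and in those of 3.30% of 27025 genes. Among the cholesterol genes 16 matched a promoter, and Hmgcs1 alone had the letters. A match is a description and not evidence of binding, and the absence of these letters elsewhere says only that they are not in the window.

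Glycolysis genes changed in both directions, with more of them lower. Of 24 tested 15 were lower and 7 higher, with a median of -0.85 (length-corrected 14 and 6, median -0.997; library totals 17 and 4). Pgk1 (chrX:106187100-106203699, plus strand), phosphoglycerate kinase, measured 147.6, 119.4 and 136.2 CPM in knockout cells against 513.1, 520.1 and 493.3 CPM in control cells. The fold change of -1.92 ± 0.10 (adjusted p 9.07e-11) was -1.54 after the length correction, and no library overlapped. Ldha, lactate dehydrogenase A, measured 1530, 1212 and 1334 CPM against 3734, 3918 and 3706 CPM (-1.48 ± 0.09), and Slc16a3, a lactate exporter, 92.7, 60.7 and 64.5 CPM against 325.4, 344.2 and 331.8 CPM (-2.20 ± 0.16; length-corrected -2.33). The mutase gene Pgam1 fell by 1.70 ± 0.09 and the isomerase gene Tpi1 by 1.44 ± 0.10.

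The 7 genes that were higher were Hk1, Hk2, Slc2a1, Slc2a3, Pfkfb3, Pfkfb4 and Eno2. Hk2, the inducible hexokinase, measured 151.1, 205.2 and 170.4 CPM in knockout cells against 43.4, 36.8 and 35.4 CPM in control cells (2.19 ± 0.19, adjusted p 2.75e-08). Hk1 rose by 0.95 ± 0.11, the glucose transporter Slc2a3 by 1.84 ± 0.32 and the regulatory enzyme gene Pfkfb3 by 1.35 ± 0.28. The transporter Slc2a1 rose by 0.56 ± 0.16 and was not called under library totals (0.18, adjusted p 0.375). Pfkfb4 (1.02) was not called under library totals either (0.64, adjusted p 0.0624). Eno2 (1.29) was not called under library totals (0.91, adjusted p 0.151) or with upper quartile scaling (1.25, adjusted p 0.0506). Eno2 also lost its call without GFP-positive control library 1 or 2 (adjusted p 0.127 and 0.081). The same held without GFP-positive knockout library 2 or 3 (adjusted p 0.269 and 0.1). The knockout effect on Pgk1 differed by 0.00 ± 0.14 from that in GFP-negative bone cells and by -1.21 ± 0.14 from that in marrow cells (adjusted p 1.36e-05). Over the list 3 genes had a higher and none a lower effect than in GFP-negative bone cells, and 2 a higher and 11 a lower effect than in marrow cells.

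Of 35 HIF subunits and hypoxia-induced genes 18 were lower and 11 higher, with a median of -0.45 (length-corrected 18 and 10; library totals 21 and 6). Fam162a, a mitochondrial protein induced in hypoxia, measured 57.2, 46.3 and 46.8 CPM in knockout cells against 294.2, 285.7 and 273.4 CPM in control cells (-2.50 ± 0.10, adjusted p 3.31e-12; length-corrected -2.08). Ndufa4l2, a subunit that damps complex I, measured 67.4, 52.1 and 49.4 CPM against 392.7, 454.5 and 390.0 CPM (-2.87 ± 0.18), and Higd1a, a respiratory assembly factor, fell by 2.06 ± 0.10. In each of these genes the knockout libraries lay far under the controls. Car9, a carbonic anhydrase, had 0 counts in the knockout libraries against 3.34, 2.37 and 1.78 CPM in control libraries. P4ha2, a collagen prolyl hydroxylase, measured 520.8, 460.8 and 464.8 CPM against 1145, 1150 and 1111 CPM (-1.24 ± 0.10).

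Among the list's hydroxylases and HIF regulators, which were picked out after their values were seen, changes went both ways. Egln1, the main HIF prolyl hydroxylase, measured 6.40, 3.59 and 7.92 CPM in knockout cells against 33.6, 18.7 and 25.6 CPM in control cells (-2.15 ± 0.29). Vhl, the ubiquitin ligase subunit that removes hydroxylated HIF, measured 21.5, 17.1 and 20.7 CPM against 59.5, 60.2 and 55.5 CPM (-1.56 ± 0.16). Both were fully separated. Egln3, a second prolyl hydroxylase, fell by 1.85 in log2 units, and Egln2 by 0.35, a call lost after the length correction and without the second control or the third knockout library. The asparaginyl hydroxylase gene Hif1an rose by 0.47 and was not called after the correction (0.16). The alpha subunit gene Epas1 rose to 37.5, 32.6 and 31.6 CPM, against 9.39, 11.6 and 8.47 CPM in control cells (1.78 ± 0.16), Hif1a by 0.48 ± 0.09 (0.10 and not called under library totals), and the partner Arnt by 0.75 ± 0.08. Vegfa, the angiogenic factor that HIF induces, was higher in knockout cells, at 320.3, 374.5 and 331.1 CPM against 168.1, 198.5 and 161.5 CPM (0.96 ± 0.14), so the list did not move in 1 direction.

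The knockout effect on Fam162a was lower than in GFP-negative bone cells by 0.66 ± 0.13 (adjusted p 0.00493) and than in marrow cells by 1.68 ± 0.13 (adjusted p 2.6e-07). Against GFP-negative bone cells 6 genes of the list had a higher and 8 a lower effect, and against marrow cells 5 and 14. The 8 were 3 without the first control GFP-positive library, 4 without the third control GFP-negative library and 5 without the second control, the second knockout or the third knockout GFP-positive library or the first or second knockout GFP-negative library.

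Promoters of 3 glycolysis genes that fell are printed with the core of the HIF response element, ACGTG, and its reverse complement in capitals. They are from RefSeq on GRCm38.p6, plus strand, at chrX:106186850-106187149 (Pgk1), chr7:46845554-46845853 (Ldha) and chr11:120948817-120949116 (Slc16a3), and the palindrome CACGTG counts on both strands.
Pgk1: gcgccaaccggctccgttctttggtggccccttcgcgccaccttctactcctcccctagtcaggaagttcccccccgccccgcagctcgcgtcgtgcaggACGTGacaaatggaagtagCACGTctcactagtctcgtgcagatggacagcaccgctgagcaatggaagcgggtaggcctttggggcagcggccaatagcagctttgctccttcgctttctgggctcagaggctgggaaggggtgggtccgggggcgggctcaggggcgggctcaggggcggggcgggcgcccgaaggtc
Ldha: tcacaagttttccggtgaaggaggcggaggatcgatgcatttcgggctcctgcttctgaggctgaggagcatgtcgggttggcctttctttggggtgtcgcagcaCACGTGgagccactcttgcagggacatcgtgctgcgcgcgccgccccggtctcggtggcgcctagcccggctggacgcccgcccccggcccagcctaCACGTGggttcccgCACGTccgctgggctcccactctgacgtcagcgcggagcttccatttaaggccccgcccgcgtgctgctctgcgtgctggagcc
Slc16a3: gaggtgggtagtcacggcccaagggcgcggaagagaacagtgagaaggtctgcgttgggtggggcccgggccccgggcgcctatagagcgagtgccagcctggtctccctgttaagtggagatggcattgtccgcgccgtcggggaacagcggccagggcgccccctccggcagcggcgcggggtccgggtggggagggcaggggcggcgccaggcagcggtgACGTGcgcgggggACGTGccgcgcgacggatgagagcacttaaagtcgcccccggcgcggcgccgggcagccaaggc
The letters occurred on the plus and minus strand 1 and 1 times in the Pgk1 window, 2 and 3 times in the Ldha window and 2 and 0 times in the Slc16a3 window. A second Ldha window in the table, at chr7:46846832-46847131, held none. ACGTG on either strand occurred in 19.6% of all windows and in those of 21.8% of genes, in 14 of 23 glycolysis genes matched and in 18 of 29 genes of the hypoxia list. The 14 included Hk1, Hk2, Pfkfb3 and Slc2a1, which were higher in knockout cells.

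The nuclear-encoded respiratory chain fell nearly throughout. Of 36 subunits tested 35 were lower and none higher (length-corrected 32 and 0; library totals 36 and 0), with a median of -0.86. Uqcrc2 of complex III fell to 61.0, 52.8 and 54.7 CPM in knockout cells, against 114.5, 117.8 and 119.5 CPM in control cells (-1.06 ± 0.08; length-corrected -0.71), and the groups did not overlap. Ndufa9 of complex I fell by 1.13 ± 0.09, and Sdhb and Sdhd of complex II by 1.11 ± 0.09 and 1.11 ± 0.08, while Sdha was not called (-0.07 ± 0.08). In GFP-negative bone cells 36 and in marrow cells 34 of the same genes were lower, and none of the differences against GFP-negative bone cells was called. Against marrow cells 6 were lower in GFP-positive bone cells. That count ran from 1, without the third control or without the second or the third knockout GFP-positive library, to 11 without the first knockout GFP-positive library, and was 2 without the first or second control or the first knockout marrow library and 3 without the first or second control GFP-positive or the third knockout marrow library.

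Of 25 genes of the proton pump and lysosome 19 were lower and 3 higher (length-corrected 18 and 3), with a median of -0.58. Atp6v0b and Atp6v0d1, membrane subunits of the pump, fell by 0.83 ± 0.09 and 0.96 ± 0.11. Atp6v0c measured 0.96, 1.503 and 1.01 CPM in knockout cells against 6.27, 8.13 and 7.03 CPM in control cells (-2.60 ± 0.24), and its near-identical copies make that value uncertain. Tfe3, a transcription factor of lysosomal genes, rose by 1.30 ± 0.14. Of 31 cytosolic ribosomal protein genes, which are short, 24 were lower and none higher as counted (median -0.41), and the length correction left 8 lower and 4 higher (median -0.03). As counted 16 to 25 were lower on leaving out each library, 16 of them without the second knockout library. Rps18 fell by 0.82 ± 0.10, Rpl5 by 0.75 ± 0.09 and Rpl7 by 0.63 ± 0.09, and these 3 stayed lower after the correction.

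Of 37 genes of DNA replication and mitosis 18 were lower and 6 higher (length-corrected 10 and 6; library totals 27 and 5), with a median of -0.48. The lower count was 11 without the first knockout library and 21 without the second. Tyms, thymidylate synthase, fell to 6.85, 9.89 and 7.12 CPM in knockout cells, against 16.99, 15.2 and 18.4 CPM in control cells (-1.07 ± 0.15), and Cenpa, the centromeric histone, fell by 1.06 ± 0.15. Cenpf, a kinetochore protein with a long transcript, was higher, at 6.17, 6.35 and 3.81 CPM against 0.57, 0.75 and 0.53 CPM (3.15 ± 0.38; length-corrected 2.16), and Top2a, which untangles DNA, rose by 1.09 ± 0.16. Against GFP-negative bone cells the knockout effect was higher for 15 and lower for none (9 higher without the first control GFP-positive library), and against marrow cells higher for 7 and lower for 1 (4 higher without the second knockout GFP-positive library). Under library totals the second comparison gave 2 higher and 3 lower. The effect on Top2a was 1.09 in GFP-positive bone cells against -0.46 in GFP-negative bone cells. Of 12 clustered histone genes 4 were higher and 2 lower, among them Hist1h2bc (1.53 ± 0.14), Hist1h1c (1.21 ± 0.14) and Hist1h1e (0.91 ± 0.17), which rose, and Hist1h2ae (-1.996 ± 0.49), which fell at about 1 CPM.

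The PTH receptor pathway list holds ligand, receptor and the genes of its signal, Pth1r included. Of 37 tested 19 were higher and 2 lower, with a median of 0.645, and after the length correction 14 and 2, with a median of 0.19. Under library totals 14 were higher and 8 lower. Sik1, a salt-inducible kinase that cyclic AMP both induces and inhibits, measured 19.3, 20.1 and 17.99 CPM in knockout cells against 2.43, 2.25 and 1.73 CPM in control cells. No library overlapped, and the fold change was 3.15 ± 0.36 (adjusted p 1.27e-06) in both fits. Its relative Sik2 rose by 1.98 ± 0.29, the histone deacetylase Hdac5 by 1.59 ± 0.13, the coactivator gene Crtc3 by 1.69 ± 0.31, the G protein alpha subunit gene Gnaq by 0.93 ± 0.15 and the adenylyl cyclase gene Adcy6 by 1.93 ± 0.48. Hdac4, the deacetylase that holds back MEF2C in chondrocytes, rose by 1.10 ± 0.26 as counted and was not called after the correction (0.09). The stimulatory G protein gene Gnas was not called as counted (0.09 ± 0.12) and was lower after the correction (-0.67). The knockout effect on this list differed from that in GFP-negative bone cells for 1 gene, lower, and from that in marrow cells for 5 higher and 1 lower.

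Of 28 genes known to respond to cyclic AMP or PTH 15 were higher and none lower (length-corrected 17 and 0; library totals 12 and 2), with a median of 0.91. Fosl1, an AP-1 subunit, measured 124.2, 140.1 and 159.3 CPM in knockout cells against 19.1, 35.2 and 27.7 CPM in control cells (2.37 ± 0.23, adjusted p 1.92e-07). Every knockout library was above every control library. The vitamin D receptor gene Vdr rose by 1.12 ± 0.11, the ligand Wnt4 by 0.95 ± 0.11, the growth factor Hbegf by 2.08 ± 0.28 and the prostaglandin synthase gene Ptgs2 by 2.23 ± 0.54, with 64.5, 115.1 and 334.1 CPM against 52.5, 34.5 and 21.3 CPM, highest in the third knockout library. The nuclear receptor gene Nr4a1, an immediate target of cyclic AMP, measured 407.7, 380.8 and 238.8 CPM against 157.7, 174.0 and 168.3 CPM. Its libraries did not overlap but the fold change of 1.04 ± 0.46 did not pass the test (adjusted p 0.073), and the corrected value of 1.26 did (adjusted p 0.0403). The osteoclast cytokine gene Tnfsf11 was not called.

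The promoter of Nr4a1 is printed as that of a gene induced by cyclic AMP in many cells, from RefSeq on GRCm38.p6, chr15:101266596-101266895, plus strand, with the cyclic AMP response element core TGACG or its reverse complement in capitals.
Nr4a1: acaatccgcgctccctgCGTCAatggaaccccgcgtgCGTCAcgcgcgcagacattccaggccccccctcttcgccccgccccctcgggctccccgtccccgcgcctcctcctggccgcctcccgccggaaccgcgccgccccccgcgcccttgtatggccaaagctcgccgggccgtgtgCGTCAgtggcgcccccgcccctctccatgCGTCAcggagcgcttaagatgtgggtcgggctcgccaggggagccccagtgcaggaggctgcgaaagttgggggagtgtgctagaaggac
It held the letters 4 times on the minus strand and none on the plus strand. TGACG on either strand occurred in 20.8% of all windows, in those of 23.0% of genes and in 15 of 22 matched genes of the cyclic AMP list.

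AP-1 and early growth response genes were mixed. Of 21 genes, heat shock genes included, 8 were higher and 1 lower, with a median of 0.275 that turned to -0.105 under library totals (6 higher, 4 lower). Fosb measured 2262, 2075 and 1341 CPM in knockout cells against 762.5, 734.5 and 680.0 CPM in control cells (1.38 ± 0.23, adjusted p 9.1e-05), and the groups did not overlap. Egr3 rose by 2.50 ± 0.33 and Fosl2 by 1.37 ± 0.20, while Fos (-0.29 ± 0.22) and Junb (-0.02 ± 0.24) were not called. Against marrow cells 8 genes of this list had a lower effect (5 without the first knockout marrow library). Of 29 glucocorticoid-responsive and clock genes 19 were higher and none lower (length-corrected 17 and 0; library totals 12 and 2), with a median of 0.84. Per2, a repressor of the circadian clock, measured 77.1, 92.1 and 66.5 CPM against 13.1, 7.22 and 8.04 CPM (3.05 ± 0.20, adjusted p 1.7e-09). Its partner Cry2 rose by 1.34 ± 0.12, the metallothioneins Mt1 and Mt2 by 2.21 ± 0.20 and 2.65 ± 0.26, and the glucocorticoid target Zbtb16 by 4.23 ± 0.47. The sources do not give the hour of sampling.

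Of 46 genes of IGF, FGF, BMP and TGF-beta signalling 31 were higher and 2 lower (length-corrected 29 and 1; library totals 24 and 7), with a median of 1.05. The FGF receptor gene Fgfr1 measured 293.7, 279.6 and 274.3 CPM in knockout cells against 154.0, 142.3 and 115.4 CPM in control cells (1.04 ± 0.10; length-corrected 0.40). Bmp6, a bone morphogenetic protein, measured 315.4, 276.5 and 405.2 CPM against 99.9, 123.0 and 128.5 CPM (1.504 ± 0.15). The genotypes did not overlap in either gene. Among IGF genes the binding proteins Igfbp5 (1.91 ± 0.19) and Igfbp3 (2.10 ± 0.41), the protease Pappa that frees IGF from them (2.57 ± 0.31), and the receptors Igf1r (1.62 ± 0.19; length-corrected 0.57) and Igf2r (2.22 ± 0.24) rose. The ligands Igf1 and Igf2 were not called. The 2 genes that fell, Id2 (-1.06 ± 0.25) and Id3 (-0.72 ± 0.13), are targets of BMP signalling, and Id3 was not called after the correction.

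Of 16 cytokines that regulate osteoclasts 10 were higher and 1 lower (length-corrected 7 and 1; library totals 6 and 1), with a median of 0.69. Il11 measured 35.6, 32.7 and 75.7 CPM in knockout cells against 1.86, 2.64 and 1.83 CPM in control cells (4.48 ± 0.44, adjusted p 8.64e-08), and its signalling receptor gene Il6st 151.8, 182.4 and 210.9 CPM against 34.3, 31.2 and 31.1 CPM (2.49 ± 0.14). Both were well apart, with the third knockout library highest. The macrophage growth factor Csf1 rose by 1.23 ± 0.14. Tnfsf11, which encodes RANKL, measured 6.35, 7.32 and 9.86 CPM against 6.69, 8.72 and 4.86 CPM, overlapped and was not called (0.17 ± 0.30). Its decoy receptor gene Tnfrsf11b measured 62.3, 79.2 and 174.7 CPM against 69.2, 57.7 and 60.5 CPM and also overlapped. Its call (0.74 ± 0.27, adjusted p 0.0322) was lost without the third knockout library (0.18, adjusted p 0.388) and without the second control library or the third.

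Osteoclast markers summed to 1264, 1451 and 1401 CPM in knockout cells against 458.6, 458.4 and 442.4 CPM in control cells, most of it Nfatc1 (1086, 1262 and 1216 against 226.8, 275.8 and 277.3 CPM), a factor also made outside osteoclasts. Acp5 (6.12, 5.53 and 4.82 against 13.9, 12.4 and 15.3 CPM) and Ctsk were lower, and Calcr, Dcstamp and Oscar were near 0. Macrophage markers summed to 36.6, 80.3 and 65.9 CPM against 37.9, 23.0 and 30.8 CPM, with 4 of 12 higher. The part of either in the cytokine list was not tested.

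Of 30 Wnt antagonists and targets 7 were higher and 5 lower (length-corrected 9 and 5), with a median of 0.17 that turned to -0.22 under library totals (6 higher, 11 lower). The coreceptor genes Lrp5 (2.09 ± 0.24) and Lrp6 (1.61 ± 0.20) and the antagonist receptor gene Kremen1 (1.34 ± 0.15) rose, and Rspo3, a Wnt enhancer, fell by 1.36 ± 0.21. Sfrp5 measured 3.52, 1.99 and 2.09 CPM in knockout cells against 12.2, 10.1 and 13.2 CPM in control cells.

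Of 23 proteases and inhibitors 13 were higher and 3 lower (length-corrected 12 and 3; library totals 7 and 4), with a median of 0.56. Adamts1 measured 429.8, 444.4 and 433.2 CPM in knockout cells against 123.1, 105.8 and 123.4 CPM in control cells (1.89 ± 0.19). Adam12 rose by 2.07 ± 0.17, Adamts12 by 2.96 ± 0.36 and Mmp19 by 2.31 ± 0.27, these 3 at under 25 CPM, and the inhibitor Timp3 by 2.17 ± 0.31. Mmp13, the collagenase of hypertrophic cartilage, was not called as counted (0.53 ± 0.25; length-corrected 0.86, called). Of 28 fibroblast, periosteal and tendon genes 9 were higher and 7 lower (length-corrected 8 and 6), with a median of 0.02 that turned to -0.36 under library totals (9 higher, 10 lower) and to -0.01 with upper quartile scaling. Fibronectin, Fn1, measured 3233, 4315 and 4019 CPM against 476.2, 336.0 and 363.5 CPM (3.30 ± 0.19, adjusted p 3.19e-10; length-corrected 2.50). The collagen VI chains Col6a1, Col6a2 and Col6a3 rose by 1.18 ± 0.09, 1.10 ± 0.09 and 2.61 ± 0.17, while the small proteoglycans Dcn and Lum fell by 0.77 ± 0.19 and 0.84 ± 0.19.

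Collagen modifying enzymes split. Of 27 tested 11 were higher and 10 lower (length-corrected 7 and 8), with a median of -0.02; under library totals 4 were higher and 15 lower, and 7 were higher without the second control or the second knockout library. Loxl4, a lysyl oxidase of cartilage, measured 1172, 1284 and 1346 CPM in knockout cells against 203.4, 228.5 and 230.1 CPM in control cells (2.52 ± 0.19, adjusted p 1.3e-08). Pcolce, an enhancer of procollagen cleavage, fell by 1.11 ± 0.13. Of 28 genes of the endoplasmic reticulum 7 were higher and 11 lower (length-corrected 9 and 7; library totals 4 and 17), with a median of -0.11. Mia3, which loads procollagen into transport vesicles, rose by 1.14 ± 0.10 and the stress sensor Atf6 by 1.47 ± 0.14, Manf, a secreted stress-induced protein, fell by 0.86 ± 0.09, and the chaperone Hspa5 was not called (-0.06 ± 0.13).

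The largest changes outside the lists were chosen by size among called genes whose higher genotype averaged 5 CPM or more and whose libraries did not overlap. AI506816, a gene with no known product, measured 128.8, 121.5 and 133.8 CPM in knockout cells against 0.15, 0.24 and 0.43 CPM in control cells (8.90 ± 0.18). Nptx1, a secreted pentraxin, measured 5.94, 8.44 and 15.1 CPM and had 0 counts in the control libraries, at least 68.1-fold higher over the highest floor of those libraries. Klhl40 (7.38 ± 0.68), Fhl3 (6.62 ± 0.38), Plet1 (5.97 ± 0.81), Sipa1l2 (5.47 ± 0.97), Nptx2 (5.43 ± 0.63), the water channel Aqp3 (5.30 ± 0.62), Cwh43 (5.06 ± 0.59) and Gcnt4 (4.78 ± 0.50) were also among the largest rises, with Il11. For most of these the third knockout library was the highest, as in Plet1 (5.44, 7.81 and 32.0 CPM) and Aqp3 (18.6, 18.6 and 50.9 CPM), while Fhl3 and AI506816 were even across the libraries.

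Among the falls, Tnmd, a membrane protein of tendon and ligament cells, measured 1.599, 2.96 and 2.30 CPM in knockout cells against 18.5, 15.8 and 7.03 CPM in control cells (-2.62 ± 0.37). Prss56 (-2.90 ± 0.34), R3hdml (-2.34 ± 0.20), Nxph4 (-2.33 ± 0.28) and Hdhd3 (-2.11 ± 0.24) fell, as did Foxo6os (-3.31 ± 0.29), which lies antisense to Foxo6 and cannot be told from it where strand is unknown. With the length correction Cfap74 (-2.50), Pik3c2g (-2.43) and Exog (-2.14) joined the largest falls. AC160336.1, with 93147 bases of exons, was -0.78 ± 0.25 as counted and -2.61 corrected, and its call as counted was lost without the second knockout, the second control or the third control library.

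By smallest p among genes whose knockout effect differed from both other fractions, which share the GFP-positive libraries, the leading genes were Hmgcs1, Enpp2, Hist1h2bc, Fdft1, Ezr and Pxylp1 on the higher side and Thsd4, Basp1, Bnip3l, Trappc6a, Gnai1 and Ak3 on the lower. Enpp2, autotaxin, which makes lysophosphatidic acid, measured 760.2, 704.5 and 720.2 CPM in knockout cells against 287.0, 260.7 and 280.9 CPM in control cells (1.40 ± 0.10). Ezr, ezrin, which links membrane and actin, measured 420.8, 425.5 and 487.8 CPM against 42.7, 62.9 and 54.4 CPM (3.06 ± 0.14). Both were separated widely. Basp1, a membrane protein of the cell cortex, fell to 9.46, 8.196 and 7.48 CPM, against 29.9, 32.2 and 31.5 CPM in control cells (-1.88 ± 0.16), and Bnip3l, a mitophagy receptor, to 70.3, 71.7 and 69.7 CPM, against 138.2, 141.5 and 121.1 CPM (-0.92 ± 0.08). Within GFP-positive bone cells Thsd4 was 0.65 ± 0.21 as counted and -0.29 after the length correction (not called), and it lost its call without the second knockout library. Pxylp1 was 0.31 ± 0.10 as counted, 0.07 after the correction (not called) and -0.069 under library totals, and it lost its call without the third knockout library.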

How the data were processed

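RNA from sorted mouse cells was sequenced from small inputs, and the authors deposited raw counts per gene with the exon length of each gene, per the file headers. The submitters' processing notes name STAR, featureCounts, DESeq2 and mm10; versions, the strand setting and the treatment of reads with several matches are not given in the sources used here. Gene symbols came from GENCODE vM21, which matched 54409 of 54446 IDs.

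Counts were fitted with edgeR 4.0.16 (R 4.3.3; TMM, robust quasi-likelihood test, Benjamini-Hochberg adjustment at 0.05) over the 18 libraries with a mean per group and 12 residual degrees of freedom, after filterByExpr with a minimum count of 10 and a minimum total of 15. Log2 fold changes are knockout over control, standard errors were derived from the F statistic, and interactions compared knockout effects between cell fractions. CPM and TPM were computed here from the deposited counts and lengths. The length correction removed a lowess trend (span 0.3) of each library on log2 length. The fit was tested on simulated data. Same-numbered knockout and control GFP-positive libraries did not deviate together, and replicate numbers were not used to pair libraries. A pairing by number across cell fractions was not tested. Libraries had 16497792 to 27160257 counts.

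The genes and lists were chosen with earlier results of these data known. Among called genes averaging at least 5 CPM in the higher genotype, without overlap and leaving out unnamed, sex-linked, mitochondrial and ribosomal genes, the rule named the 12 largest rises and 12 largest falls, the 10 of each after the length correction, and the 6 clearest differences in each direction against both other fractions. It also named Pth1r, the 4 genes of each list with the smallest p and the 10 most abundant of each genotype. A few genes that the rule names are not reported here. Other list members illustrate a list and were chosen after their values were seen. Alternatives were other scalings, DESeq2 1.42.0, other filters, a replicate block, other lengths, and leaving out each library.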

Additional observations from a re-analysis of the deposited data

Results flagged for a closer look

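Results were listed here because the knockout effect in GFP-positive bone cells differed, by an interaction test with adjustment over all genes (edgeR), from the effect in another cell fraction. The effect differed from that in GFP-negative bone cells for 944 genes and from that in marrow cells for 2853 genes. The 2 comparisons share the GFP-positive libraries and are not independent of each other.

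Among the leading genes with a higher effect in GFP-positive bone cells, Hmgcs1 differed by 1.62 log2 units from GFP-negative bone cells and by 1.47 from marrow cells, Enpp2 by 1.64 and 1.71, and Hist1h2bc by 2.45 and 2.28. Fdft1 differed by 1.505 and 1.695, Ezr by 1.83 and 2.28, and Pxylp1 by 1.34 and 1.602. Among those with a lower effect, Thsd4 differed by -2.02 and -2.74, Basp1 by -1.43 and -1.94, and Bnip3l by -0.73 and -0.80. Trappc6a differed by -1.01 and -1.31, Gnai1 by -0.95 and -1.11, and Ak3 by -0.95 and -1.80. In GFP-positive bone cells themselves Trappc6a fell by 1.11 ± 0.12, Gnai1 by 1.05 ± 0.13 and Ak3 by 0.76 ± 0.13.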

How the results depend on the processing

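Scaling by library totals gave 2644 genes higher and 5922 lower in GFP-positive bone cells and 5677 genes that differed from marrow cells, and DESeq2 gave 1420 that differed from GFP-negative bone cells. Pth1r was no longer called with the length correction (-0.22, adjusted p 0.175), with the longest transcript as length (-0.16, adjusted p 0.308) or with the replicate block and length correction together (-0.23, adjusted p 0.15). Pxylp1 turned to -0.069 under library totals. Thsd4 turned to -0.29 with the length correction, -0.38 with the longest transcript and -0.29 with the block and length correction. The causes were not tested. Leaving out each library gave 7071 to 7530 called genes, 3687 to 3960 higher and 3382 to 3610 lower, a Pth1r change of -0.65 to -0.39, 664 to 855 differences against GFP-negative bone cells and 2177 to 2772 against marrow cells.

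Of 150 named genes 149 entered this count, and 148 of these kept direction and call with DESeq2. With the length correction 144 did, and under library totals also 144. Most named genes were chosen for being called, and some for passing in the length-corrected fit too. These counts were thus largely set by the choice and do not measure how firm the calls are in general. Of all 7953 calls 72.1% were made again in the same direction with the length correction. The loss of the call of Pth1r with the length correction is given separately above. The replicate block, with the number shared over genotypes and cell fractions, gave 8124 calls against 7953. It gave 1009 differences from GFP-negative bone cells, against 944 without the block, and 3046 from marrow cells, against 2853. Deviations of same-numbered knockout and control GFP-positive libraries correlated at -0.0634, -0.0143 and -0.00626. With so few libraries these values cannot exclude a pairing, and the third library of each genotype differed in sex from the others. A pairing by number across cell fractions was not tested.

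The length trend separates the genotypes and cannot be told apart from them, genes below about 0.2 CPM were out of reach, and 3 libraries per genotype limit every value.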
